A study of Mus musculus with 12 samples.

Results

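Dapl1, Igfbp4, Sidt1, Actn1, Als2cl, Rapgef4, Txnip and Pik3ip1 are 8 genes expressed in resting CD8 T cells, the lymphocytes that kill infected and tumour cells. They were followed in cells with and without Ezh2, before and after stimulation. The 8 genes were taken by symbol from the annotation deposited with the arrays, which gives them 20 of 45141 probe sets. They are 8 of the 20962 genes with a probe set of their own. The choice was made because several of them lost, or kept, the level of naive cells when Ezh2 was absent. Differences that involve knockout arrays therefore chose the genes. They are described below, and where a call of the fit over all genes is counted for them, nothing is read from it. For the 8 genes, p-values are given only for the response of wild-type cells to stimulation. Its difference uses no knockout array, but its SE and p-value rest on a variance shared by all 12 arrays, knockout arrays included. The response was also known when the genes were chosen, so its direction is not independent evidence.

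The study asked how CD8 T cells that lack Ezh2 differ in expression from normal ones, at rest and after stimulation. Ezh2 is the enzyme of Polycomb repressive complex 2 that methylates lysine 27 of histone H3, a mark of silenced genes. Cells came from 6 male C57BL/6 mice aged 4 weeks, 3 of them Ezh2 fl/fl with a Cre transgene under the CD4 promoter (mice 4 to 6, knockout) and 3 wild type (mice 1 to 3). This Cre acts during T-cell development, in T cells that pass a CD4-expressing stage, and so before the cells become naive CD8 cells. CD8 cells were pulled from spleen and lymph nodes with magnetic beads carrying anti-CD8, at a purity over 93%. The 4 groups of 3 arrays were activated knockout, activated wild type, naive knockout and naive wild type cells. Activated cells were kept for 3 days in wells that carried anti-CD3 and a second antibody, which the series text calls anti-CD28 and the sample labels call anti-CD38. Naive cells were used straight after isolation. No unstimulated culture was analysed here, so stimulation, culture and handling cannot be told apart. Each mouse gave 1 naive and 1 activated sample.

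A resting T cell is kept small and inactive by a set of genes that includes brakes on growth signals. Binding of the T-cell receptor and a costimulatory receptor switches on phosphoinositide 3-kinase (PI3K) and the kinase Akt, which drive FOXO transcription factors out of the nucleus and raise glucose uptake. In resting cells Pik3ip1, a transmembrane protein, holds PI3K down. Txnip, an arrestin-related protein of the cytoplasm, binds thioredoxin and limits glucose uptake. The other members are known for other tasks. Igfbp4 is a secreted protein that binds insulin-like growth factors. Sidt1 is a membrane protein related to the double-stranded RNA channel SID-1 of Caenorhabditis elegans. Rapgef4 (Epac2) is switched on by cyclic AMP and activates the small GTPase Rap1, which controls integrin adhesion. Als2cl acts on the small GTPase Rab5, and Actn1 (alpha-actinin-1) cross-links actin filaments. Dapl1 is an intracellular protein found in naive T cells. Only Sidt1 and Pik3ip1 of the 8 are membrane proteins, so the genes are called resting-cell genes here.

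Promoters are shown for 4 genes, from 250 bases before to 50 bases after the transcription start, on the strand of the gene. Dapl1 and Igfbp4 are shown because they were the lowest of the 8 in knockout relative to wild-type cells, Actn1 because it was higher in activated knockout cells, and Txnip because it shares a FOXO word with Dapl1. Sequences and coordinates are RefSeq's on GRCm38.p6. The regions are chr2:59484403-59484702 (plus strand) for Dapl1, chr11:99040994-99041293 (plus) for Igfbp4, chr12:80260314-80260613 (minus) for Actn1 and chr3:96557707-96558006 (plus) for Txnip. Capitals mark the FOXO word (GTAAACA or TGTTTAC) and the KLF/SP word (GGGCGG or CCGCCC).
Dapl1: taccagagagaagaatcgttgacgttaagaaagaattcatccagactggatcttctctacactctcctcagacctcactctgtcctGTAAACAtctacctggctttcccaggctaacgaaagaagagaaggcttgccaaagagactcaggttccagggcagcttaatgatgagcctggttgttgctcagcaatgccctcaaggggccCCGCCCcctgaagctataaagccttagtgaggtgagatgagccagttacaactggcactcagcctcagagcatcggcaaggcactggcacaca
Igfbp4: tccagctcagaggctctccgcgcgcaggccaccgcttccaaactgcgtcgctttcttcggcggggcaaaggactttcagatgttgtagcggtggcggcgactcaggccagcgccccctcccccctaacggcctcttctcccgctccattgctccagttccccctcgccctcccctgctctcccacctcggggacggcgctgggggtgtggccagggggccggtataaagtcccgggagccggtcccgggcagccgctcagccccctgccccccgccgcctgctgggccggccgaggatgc
Actn1: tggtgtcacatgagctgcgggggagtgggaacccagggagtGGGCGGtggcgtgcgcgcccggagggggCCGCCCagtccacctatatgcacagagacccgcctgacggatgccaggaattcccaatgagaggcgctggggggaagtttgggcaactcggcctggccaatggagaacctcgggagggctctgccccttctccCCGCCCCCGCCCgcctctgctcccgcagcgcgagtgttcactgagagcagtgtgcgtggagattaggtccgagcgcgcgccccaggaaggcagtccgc
Txnip: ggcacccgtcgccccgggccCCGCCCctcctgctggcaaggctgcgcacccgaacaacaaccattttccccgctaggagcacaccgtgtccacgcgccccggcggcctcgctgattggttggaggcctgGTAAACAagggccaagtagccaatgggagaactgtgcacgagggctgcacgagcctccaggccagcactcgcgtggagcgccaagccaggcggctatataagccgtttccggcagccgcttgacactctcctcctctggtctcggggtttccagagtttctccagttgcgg
All 8 genes matched the RefSeq table, with 9 windows, since Als2cl has 2 starts. The FOXO word stood 164 bases before the start in Dapl1 (position -164) and at -121 in Txnip, and in none of the other 7 windows, against 1199 (3.65%) of all 32851 promoter windows of the same length. The KLF/SP word was found in 6 of the 9 windows and in 35.7% of all. The E-box CACGTG, bound among others by the Mondo glucose sensors, is in 7.15% of all windows and the TCF/LEF word (CTTTGAT or ATCAAAG) in 3.73%; neither occurred in the 9. The genes differed in CpG content. Dapl1 held 5 CpG sites, Pik3ip1 7 and Sidt1 9, against a median of 7 over all windows. Txnip and Actn1 held 24 each, Igfbp4 27, the Als2cl windows 33 and 38, and Rapgef4 40. A word match describes letters only and is not evidence of binding.

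Values are the authors' log2 expression estimates, with array medians between 0.905 and 0.976 and a median of 0.94 over all probe sets. Because most probe sets lie near that floor, folds of dim genes are compressed. One probe set per gene, the one with the highest mean, was used for each comparison. A change is a log2 difference between group means ± its SE in limma (3 arrays per group), and a gene was called where the p-value adjusted over all 20962 genes was under 0.05. Ezh2 itself read 2.72 to 3.78 in activated knockout against 5.26 to 5.56 in activated wild-type cells, and 1.95 to 2.18 in naive knockout against 2.16 to 2.42 in naive wild-type cells. The naive ranges overlapped, and that difference (-0.20 ± 0.20, limma adjusted p = 0.845) did not pass. Whether its probe set lies in the deleted stretch is not known. CD8 T-cell markers were present on every array. The summed level of 10 of them on the linear scale was 508 to 589 in activated knockout, 703 to 716 in activated wild type, 952 to 1042 in naive knockout and 942 to 1012 in naive wild-type cells. Within a group the 3 replicates are different mice. The p-values rest on the spread within groups, as a variance shared by all 4 groups and both genotypes. The main fit did not pair arrays that came from the same mouse.

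All 8 genes were lower in activated than in naive cells, in both genotypes. In knockout cells all 8 were called lower, by 1.33 to 13.3 fold, where 10.9% of all genes were, with a median difference of -1.60 against -0.02 for all genes; as knockout arrays chose the genes, nothing is read from this count. No gene's activated and naive knockout arrays overlapped, which was so in this direction for 17.3% of all genes. In wild-type cells all 8 fell on activation, by 1.98 to 9.87 fold, where 11.9% of all genes were called lower, with a median change of -1.65 against -0.03 for all genes. Igfbp4, Sidt1 and Dapl1 had the lowest changes, then Pik3ip1. The fold of Rapgef4, 1.98, is compressed, because its activated arrays lie at the floor. In each of the 8 the 3 activated wild-type arrays lay below the 3 naive ones, as in 22.7% of all genes. All 20 probe sets of the 8 genes were called lower in wild-type cells, against 11.9% of all probe sets, with changes between -3.57 and -0.48. Relative to the fall in wild-type cells, the knockout difference was 34.9% for Actn1, 67.2% for Igfbp4, 68.5% for Pik3ip1, 79.6% for Dapl1, 101% for Txnip, 117% for Sidt1 and 135% for Als2cl, on the chosen probe sets. These shares depend on the probe set, and the other 5 of Igfbp4 gave 24.2% to 47.8%. The other 2 of Actn1 gave 32% and 55.1%, and the other one 61.7% for Pik3ip1, 103% for Txnip, 175% for Sidt1 and 159% for Als2cl. Some of these probe sets reach the floor. Igfbp4 1423756 (24.2%), Igfbp4 1421991 (39.9%) and the second of Sidt1 (175%) had activated means under 0.94 in both genotypes. The floor limits their shares. For Rapgef4, at the floor after activation on its chosen probe set, no share is given.

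Markers of other cells moved on activation too. The summed level of 15 B-cell markers was 37.7 to 42.6 in activated knockout and 38.9 to 40.4 in activated wild-type cells, against 115 to 156 in naive knockout and 322 to 340 in naive wild-type cells, and 14 of the 15 were called lower in wild-type cells on activation. Of the B-cell markers only Ebf1 stayed under the median on every array. NK-cell markers, 7 in number, summed to 15.7 to 17 in activated knockout and 14.6 to 16.7 in activated wild-type cells. In naive knockout and wild-type cells they summed to 39.1 to 75.9 and 50.5 to 56.4, with Ncr1 under the median throughout. On activation 4 of the 7 were called lower in wild-type cells and 3 did not pass. Between naive genotypes 1 was called higher in the knockout (Klra8, 3.43) and 2 lower (Tyrobp at -2.49), so these sums do not describe the list. Dendritic-cell markers, 7 in number, summed to 62.4 to 86.7 and 84.5 to 90 in activated knockout and wild-type cells, against 23.9 to 35.5 and 33.6 to 36.3 in the naive groups. Of these 7, Irf8 rose in wild-type cells (2.54, to a mean of 5.99 in activated against 3.45 in naive cells), Siglech (-1.01) and Xcr1 (-0.26) fell and the other 4 did not pass, so the higher sum does not describe the list. In wild-type cells 7 of 10 CD8 T-cell markers were called lower and 1 higher. The part of such shifts in the falls of the 8 genes was not tested. In a bulk sample, fewer cells of a type and less RNA per cell cannot be told apart.

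**Figure D1:**
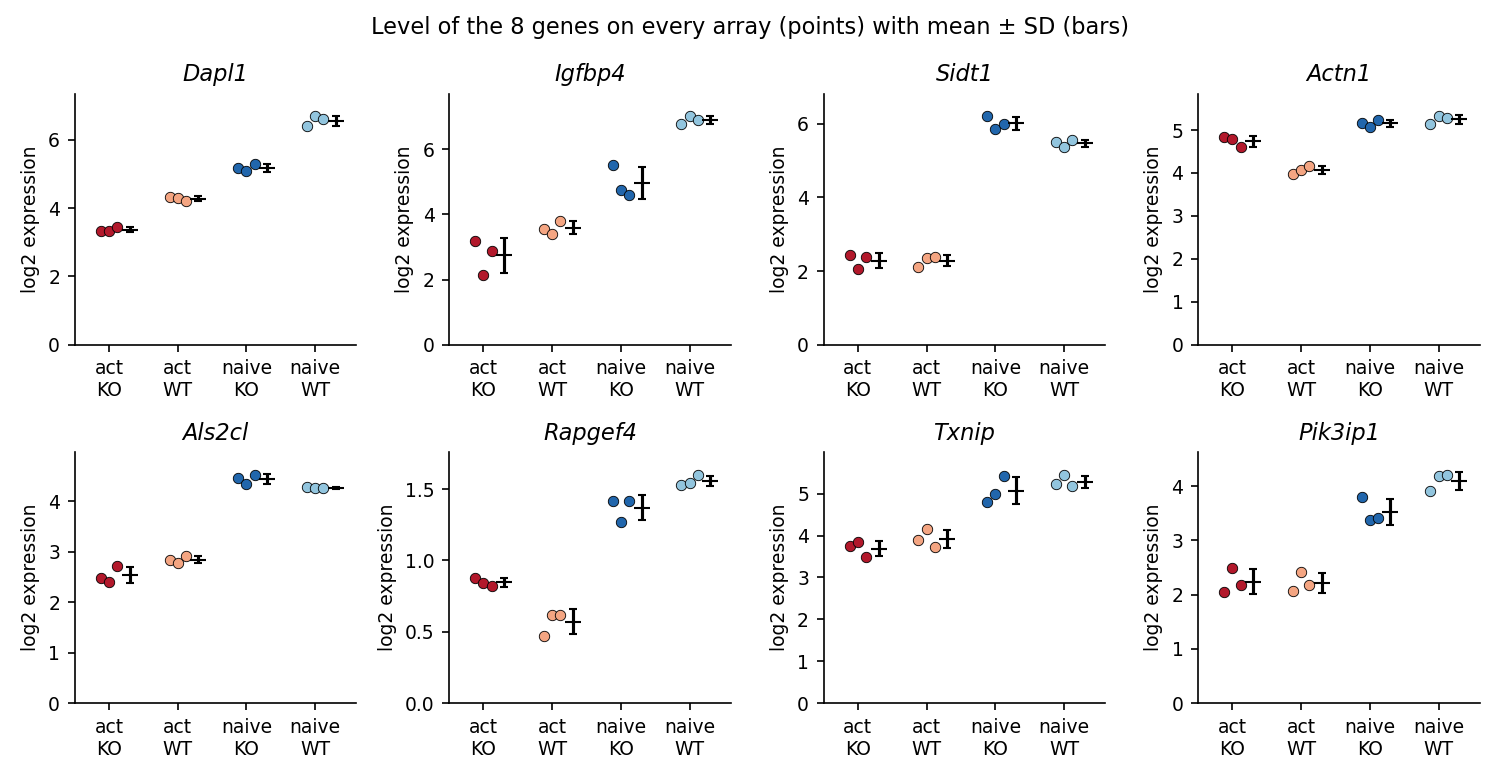
Log2 expression (vertical axis, from 0) of the 8 genes on each of the 12 arrays, by group from activated knockout (left) to naive wild type (right). Points are arrays and bars are the mean ± SD of 3 arrays; naive arrays lie above activated arrays of the same genotype in all 8 panels, and Dapl1 and Igfbp4 are lower in knockout than in wild-type arrays in both states.

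The genes that differed most between genotypes before stimulation were Igfbp4 and Dapl1. Dapl1 has a single probe set, 1453568, which carries a cross-hybridization note. It read 3.32, 3.33 and 3.46 in activated knockout cells of mice 4, 5 and 6, against 4.33, 4.31 and 4.20 in activated wild-type cells of mice 1, 2 and 3. In naive cells it read 5.17, 5.08 and 5.30 in the knockout and 6.40, 6.69 and 6.60 in the wild type. The 4 groups form a staircase with no overlap between any pair, and naive knockout cells sat between activated and naive wild-type cells. Activated minus naive was -1.81 (3.52-fold) in knockout cells. In wild-type cells Dapl1 fell by 2.28 on the log2 scale (-2.28 ± 0.09, 4.86-fold, limma adjusted p = 1.12e-10), and 63 of all genes had a lower change. Knockout minus wild type was -0.91 (1.88-fold) in activated and -1.38 (2.59-fold) in naive cells. In the naive comparison, where Dapl1 was lower, the B-cell marker sum was lower as well (115 to 156 in the knockout, 322 to 340 in the wild type), and 5 of the 15 were called lower, with H2-Ab1 at -1.54. Myeloid markers, 11 in number, summed to 22.8 to 23.5 in naive knockout and 30.8 to 35.1 in naive wild-type cells, with Itgam, Cd14 and Adgre1 under the median on every array. The part of these markers in the naive difference was not tested. In activated cells the B-cell marker sums overlapped between genotypes. The immunoglobulin gene Igkv8-30 did not overlap there, at 0.82 to 1.22 in knockout and 1.96 to 2.01 in wild-type cells (-0.93). The part of B-cell transcripts in the activated difference of Dapl1 was not tested either.

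Igfbp4 is covered by 6 probe sets and is the most variable member among knockout mice. The chosen probe set, 1437405, read 3.19, 2.14 and 2.89 in activated knockout cells of mice 4, 5 and 6, against 3.56, 3.40 and 3.81 in activated wild-type cells. It read 5.52, 4.75 and 4.61 in naive knockout and 6.78, 7.01 and 6.89 in naive wild-type cells. Knockout arrays were below wild-type arrays in both states, and naive knockout arrays stayed above activated ones. Its SD among knockout mice was 0.54 in activated and 0.49 in naive cells, and among wild-type mice 0.20 and 0.11. On activation the difference was -2.22 (4.66-fold) in knockout cells. The other 5 probe sets differed by less there, from -1.21 to -0.27, and the mean of all 6 gave -1.02. Igfbp4 fell by 3.30 in wild-type cells (-3.30 ± 0.24, 9.87-fold, limma adjusted p = 5.08e-08), where 18 genes had a lower change. Knockout minus wild type was -0.85 (1.81-fold) in activated cells and -1.94 (3.83-fold) in naive cells. The naive difference had the same sign in all 6 probe sets, from -2.91 to -0.57. One of these, 1423756, read 2.18, 1.35 and 1.16 in naive knockout and 4.51, 4.54 and 4.37 in naive wild-type cells, the widest gap of the 20 probe sets. In activated cells the 6 differences were smaller, from -0.85 to -0.16. The naive B-cell and myeloid marker sums given with Dapl1 apply here as well.

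Sidt1 went the other way in naive cells. The chosen probe set, 1426550, read 2.43, 2.05 and 2.37 in activated knockout and 2.12, 2.34 and 2.39 in activated wild-type cells, which overlap fully. In naive cells it read 6.20, 5.86 and 5.98 in the knockout, all above the 5.50, 5.36 and 5.55 of the wild type. The activated minus naive difference was -3.73 (13.3-fold) in knockout cells, where 5 genes had a lower one. Activation took Sidt1 down by 3.19 in wild-type cells (-3.19 ± 0.12, 9.1-fold, limma adjusted p = 3.65e-11). Both genotypes ended at a mean of 2.28, and knockout minus wild type was 0.00 in activated and 0.55 (1.46-fold) in naive cells. The second, dimmer probe set differed by 0.42 in naive cells, with 1.52, 1.33 and 1.12 in the knockout and 0.84, 1.05 and 0.83 in the wild type.

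Actn1 was the member that stayed up in stimulated cells lacking Ezh2. Its chosen probe set, 1428585, read 4.83, 4.79 and 4.60 in activated knockout cells, against 3.97, 4.06 and 4.16 in activated wild-type cells, with no overlap. Naive cells read 5.16, 5.07 and 5.24 in the knockout and 5.13, 5.32 and 5.29 in the wild type, which overlap. The activated minus naive difference was -0.41 (1.33-fold) in knockout cells, and the gene fell by 1.18 in wild-type cells (-1.18 ± 0.09, 2.27-fold, limma adjusted p = 1.07e-07). Within single mice, activated minus naive was -0.33, -0.27 and -0.63 in knockout mice 4, 5 and 6, and -1.15, -1.26 and -1.13 in wild-type mice 1, 2 and 3. All 3 Actn1 probe sets gave a similar gap in activated cells, 0.68, 0.67 and 0.63, and small differences of either sign in naive cells, from -0.10 to 0.08. Both dimmer probe sets also had all activated knockout arrays above the wild-type ones. Probe set 1427385 read 2.81, 2.20 and 2.16 in activated knockout and 2.06, 1.67 and 1.42 in activated wild-type cells, and 1452415 read 2.49, 1.77 and 2.38 against 1.75, 1.44 and 1.56.

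Rapgef4 lay at the bottom of the scale. Its chosen probe set, 1425518, read 0.88, 0.84 and 0.82 in activated knockout and 0.47, 0.62 and 0.62 in activated wild-type cells, all under the lowest array median of 0.905. It read 1.42, 1.27 and 1.42 in naive knockout and 1.53, 1.54 and 1.60 in naive wild-type cells, a little above the median. Activated arrays were thus the lower ones, by -0.53 (1.44-fold) in knockout cells, and Rapgef4 fell by 0.98 in wild-type cells (-0.98 ± 0.08, 1.98-fold, limma adjusted p = 1.31e-07). Knockout minus wild type was 0.28 in activated cells and -0.18 in naive cells, without overlap in either state. The second probe set did not keep the activated sign (-0.01) but kept the naive one (-0.34), so the activated difference of this gene rests on 1 probe set near the floor.

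Als2cl, by probe set 1433769, read 2.48, 2.40 and 2.71 in activated knockout and 2.84, 2.77 and 2.92 in activated wild-type cells. In naive cells it read 4.46, 4.34 and 4.52 in the knockout and 4.28, 4.26 and 4.25 in the wild type. Knockout arrays were thus lower than wild-type arrays after stimulation and higher before it, in both cases without overlap and by small amounts (-0.31 in activated and 0.18 in naive cells). On activation the knockout difference was -1.91 (3.76-fold), and in wild-type cells Als2cl fell by 1.42 (-1.42 ± 0.09, 2.67-fold, limma adjusted p = 1.29e-08). Each knockout mouse had a larger drop, of -1.98, -1.93 and -1.81, than any wild-type mouse, at -1.44, -1.49 and -1.33. The second probe set had the same signs, -0.35 in activated and 0.26 in naive cells.

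Txnip and Pik3ip1 are the brakes on growth signals among the 8. On its chosen probe set with all arrays, neither was called between genotypes in either state. Txnip, by probe set 1415997, read 3.74, 3.84 and 3.48 in activated knockout and 3.89, 4.15 and 3.72 in activated wild-type cells. It read 4.80, 4.99 and 5.42 in naive knockout and 5.22, 5.45 and 5.18 in naive wild-type cells. Genotypes overlapped in both states, with differences of -0.23 in activated and -0.21 in naive cells. On activation the knockout difference was -1.38 (2.61-fold), and Txnip fell by 1.36 in wild-type cells (-1.36 ± 0.15, 2.57-fold, limma adjusted p = 5.22e-06). Its second probe set, marked by the authors as matching the antisense strand, differed by -1.82 in knockout and -1.77 in wild-type cells. In naive cells its knockout arrays all lay below the wild-type ones (-0.23).

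Pik3ip1, by probe set 1428332, read 2.05, 2.49 and 2.18 in activated knockout and 2.06, 2.42 and 2.17 in activated wild-type cells, nearly the same values. In naive cells it read 3.81, 3.38 and 3.41 in the knockout, below the 3.91, 4.18 and 4.21 of the wild type. Knockout minus wild type was 0.03 in activated and -0.57 (1.48-fold) in naive cells. On activation the knockout difference, which began from a lower naive level, was -1.29 (2.45-fold), and Pik3ip1 fell by 1.89 in wild-type cells (-1.89 ± 0.14, 3.7-fold, limma adjusted p = 7.39e-08). The chosen probe set carries an antisense mark. The other, 1439087, has none and read 2.84, 3.04 and 2.44 in naive knockout and 3.19, 3.36 and 3.57 in naive wild-type cells (-0.60).

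**Figure D2:**
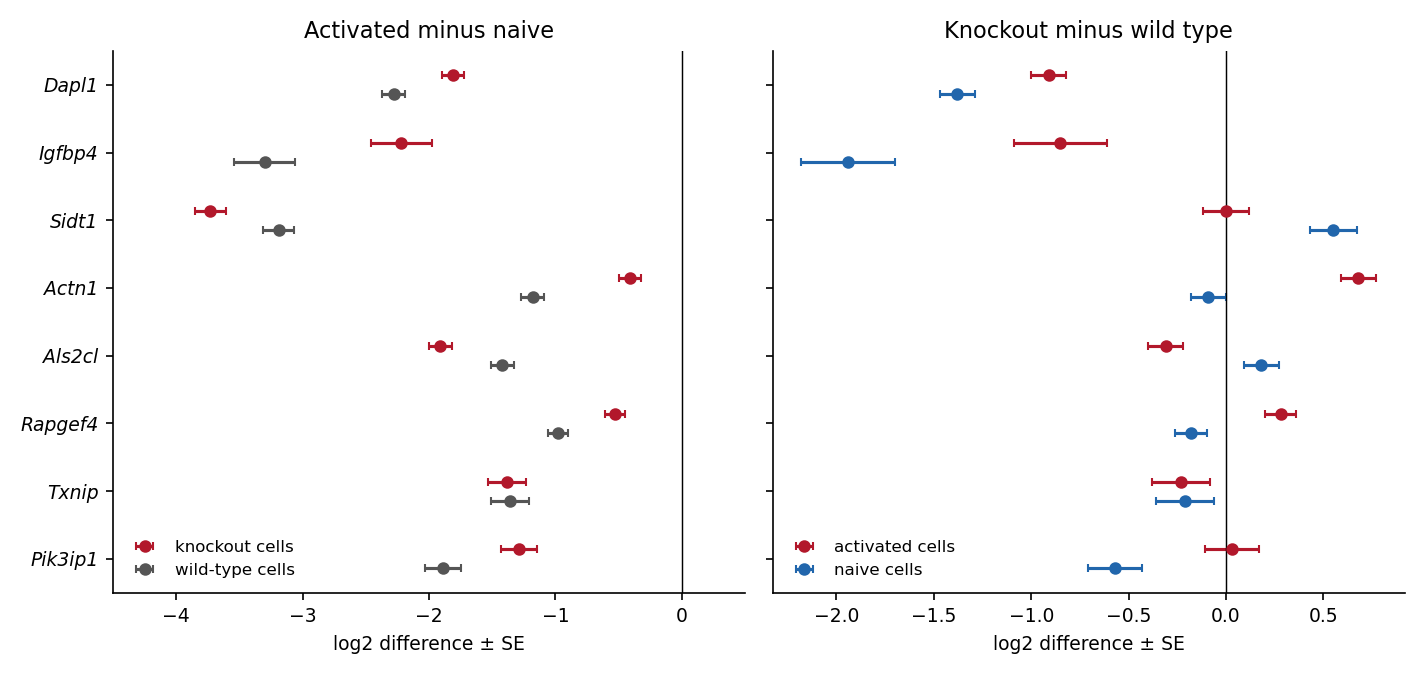
Log2 differences ± SE (horizontal axis) of the 8 genes: activated minus naive at left, in knockout (red) and wild-type (grey) cells, and knockout minus wild type at right, in activated (red) and naive (blue) cells. Every activation difference is below 0, while the genotype differences run from -1.94 (Igfbp4, naive) to 0.68 (Actn1, activated).

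Between genotypes the 8 genes split. In naive cells Dapl1 and Igfbp4 were called lower in the knockout and Sidt1 higher, where 0.468% of all genes were called lower and 0.62% higher. Sidt1 was no longer called without any 1 of naive wild-type arrays 1, 2 and 3, naive knockout arrays 4 and 6, or activated wild-type arrays 2 and 3, with differences from 0.45 to 0.59, and Pik3ip1 was called without naive knockout array 4, at -0.71. Groups did not overlap for 4 genes lower in the knockout (Dapl1, Igfbp4, Rapgef4 and Pik3ip1; 8.02% of all genes) and 2 higher (Sidt1 and Als2cl; 6.98%). In activated cells Dapl1 was called lower and Actn1 higher, where 0.372% and 0.949% of all genes were. Igfbp4 was called lower as well without naive knockout array 4 (-0.85) or activated knockout array 4 (-1.08). Groups did not overlap for Dapl1, Igfbp4 and Als2cl, lower in the knockout (6.34% of all genes), and for Actn1 and Rapgef4, higher (7.96%). These comparisons chose the genes, so nothing is read from the counts. Activated knockout cells also had lower CD8 T-cell markers (6 of 10 called lower, Cd2 at -0.96), and in naive knockout cells 3 memory-phenotype CD8 markers were called higher (Eomes 2.63) and 4 lower (Itgae -2.66) of 10. The part of these markers in the differences of the 8 genes was not tested.

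**Figure D3:**
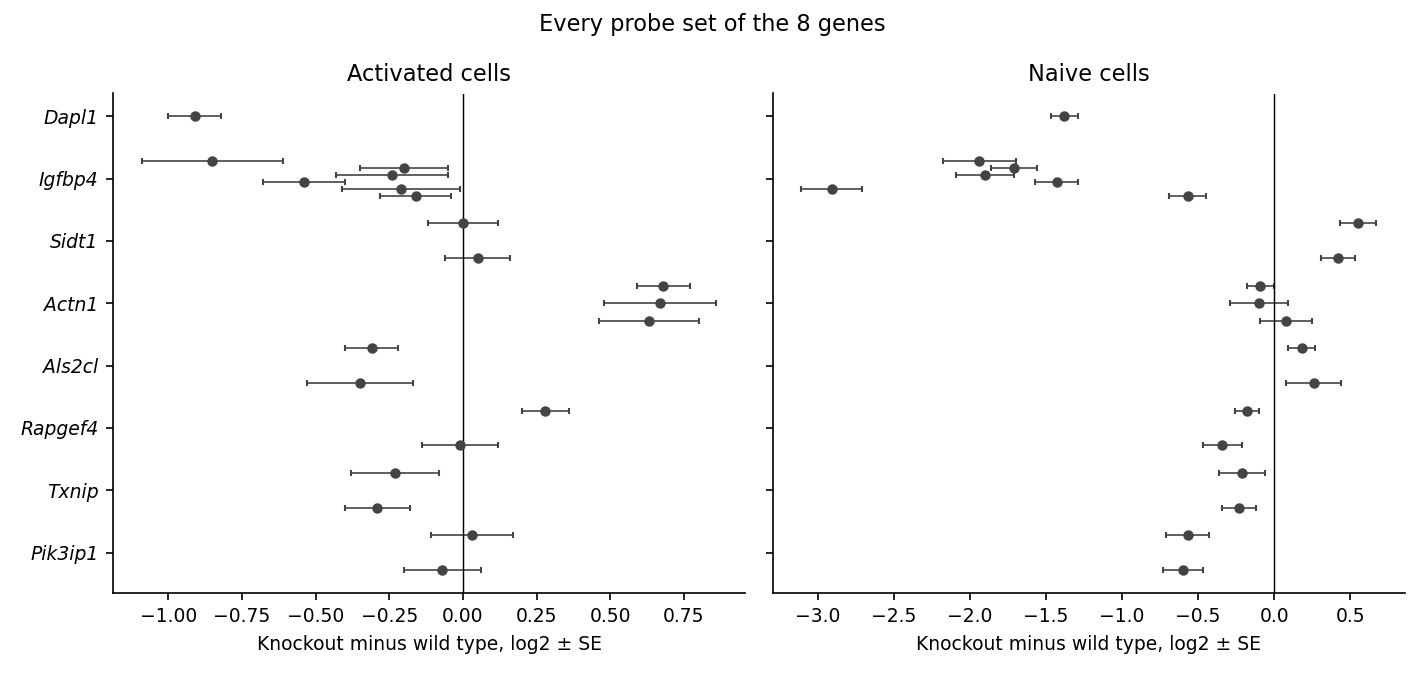
Knockout minus wild-type difference (log2 ± SE, horizontal axis) for each of the 20 probe sets of the 8 genes, in activated cells (left) and naive cells (right). The 6 Igfbp4 probe sets are all below 0 in naive cells, and the 3 Actn1 probe sets lie between 0.63 and 0.68 in activated cells.

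The difference between the knockout and wild-type activation changes put the genes on both sides. It was 1.08 for Igfbp4, 0.77 for Actn1, 0.59 for Pik3ip1, 0.47 for Dapl1 and 0.46 for Rapgef4, where the knockout lost less. For Sidt1 it was -0.54 and for Als2cl -0.49, where the knockout lost more, and for Txnip -0.02. Of the 8, Actn1 was called, where 0.606% of all genes were called higher, and nothing is read from this call. It was lost with the mean of all probe sets (0.69), and neither of the other 2 Actn1 probe sets was called (0.77 and 0.55). For Igfbp4, not called on the chosen probe set, 3 of the 6 probe sets were called. The 6 measure 1 gene on the same arrays and knockout arrays helped to choose it, so nothing is read from this count either. The levels behind the positive values differed. For Actn1 the naive levels overlapped and the activated levels differed, while for Pik3ip1 the activated levels overlapped and the naive level was lower in the knockout. For Igfbp4 and Dapl1 both levels were lower in the knockout, the naive one by more. A probe set of Igfbp4, 1423756, had the largest value of the 20, 2.70. Its activated arrays lay at the floor, at 0.51 to 0.95 in the knockout and 0.81 to 1.07 in the wild type. That value therefore largely restates the naive difference of -2.91. The activated arrays of Rapgef4 lay at the floor as well.

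Across the 12 arrays the 8 genes moved together, as genes that fall on activation in both genotypes do. Pearson's r between members ran from 0.62 (Dapl1 and Actn1) to 0.99 (Sidt1 and Als2cl), and was 0.97 for Dapl1 with Igfbp4 and 0.95 for Actn1 with Rapgef4. The arrays fall into 4 groups, so these values describe group means more than single mice. Genes were then ranked by likeness to each member, leaving out those with provisional symbols (such as Rik, Gm, LOC and clone names). Among the genes ranked, the closest in pattern to Dapl1 was Igkv8-30 (r = 0.991 over 12 arrays), an immunoglobulin kappa gene of B cells. It averaged 1.06 in activated knockout, 1.99 in activated wild type, 3.65 in naive knockout and 5.50 in naive wild-type cells. It was followed by Vmn2r1 (0.986), which stayed between 1.11 and 1.74, and by Ifngr2 (0.979), an interferon-gamma receptor chain. Igfbp4 was closest to Plet1 (0.981), also dim, the chemokine receptor gene Cxcr6 (0.976) and again Igkv8-30 (0.974). What a shared pattern with an immunoglobulin gene means for Dapl1 and Igfbp4 was not tested.

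For Sidt1 the closest genes were Epsti1 (0.995), the early-response gene Fosb (0.994) and Pdcd4 (0.992). Als2cl was nearest to Rassf2 (0.996), Sp100 (0.993) and Arhgap4 (0.993). Actn1 was nearest to Rgs2 (0.967), a regulator of G-protein signalling, which averaged 4.87 in activated knockout and 3.43 in activated wild-type cells, and 6.03 in naive knockout and 6.35 in naive wild-type cells. Trp53inp2 (0.950) and Apobec1 (0.936) came next. Rapgef4 followed Cited2 (0.978), Jun (0.969) and the egress receptor gene S1pr1 (0.967). For Txnip the nearest genes were Cd52 (0.983), Lsp1 (0.979) and Evi2b (0.978), and for Pik3ip1 they were Slc43a2 (0.984), Rtn4rl1 (0.984) and Neurl3 (0.981). Each trio was picked for its likeness, so the values carry no test.

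Relatives of the 8 genes were called in both directions on activation. Of 22 measured relatives, 2 rose and 7 fell in knockout cells (median -0.07), and 1 rose and 5 fell in wild-type cells (median -0.07). Over all genes 15.8% rose and 10.9% fell in knockout cells, and 14.8% rose and 11.9% fell in wild-type cells. The 9 knockout calls were 5 without naive knockout array 5. Among the alpha-actinins Actn4, the other form outside muscle, rose by 1.19 ± 0.15 in knockout cells (limma adjusted p = 1.37e-05) and 0.82 ± 0.15 in wild-type cells (0.000527), opposite to Actn1. It read 4.88, 4.92 and 4.64 in activated knockout and 4.69, 4.33 and 4.96 in activated wild-type cells, against 3.66, 3.48 and 3.74 in naive knockout and 3.59, 3.99 and 3.94 in naive wild-type cells. The muscle form Actn2 was dim and fell by 0.30 in knockout and 0.82 in wild-type cells, and in naive cells it was the relative called between genotypes, lower in the knockout (-0.51 ± 0.09, limma adjusted p = 0.00937). A second was called there without naive knockout array 6. With antisense-marked probe sets left out the count was 0 of the 21 relatives then measured. In activated cells limma called 0 of the 22, with 3 at an unadjusted p under 0.05, and in the interaction likewise 0 and 3. Actn3 did not pass in any comparison.

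Of the Rap exchange factors related to Rapgef4, Rapgef6 fell by 1.36 in knockout (-1.36 ± 0.12, limma adjusted p = 4.58e-07) and by 1.16 in wild-type cells (-1.16 ± 0.12, 2.76e-06). It read 4.70, 4.61 and 5.08 in activated knockout and 4.98, 4.80 and 5.01 in activated wild-type cells, against 6.25, 6.08 and 6.13 in naive knockout and 6.29, 6.04 and 5.94 in naive wild-type cells. Rapgef2 fell by 0.59 in knockout and 0.41 in wild-type cells, and the cyclic AMP-bound relative Rapgef3 (Epac1) did not pass. Among arrestin-domain relatives of Txnip, Arrdc1 fell by 0.52 in both genotypes, while Arrdc3 (-0.71) and Arrdc4 (-0.27) fell in knockout cells and did not pass in wild-type cells. Arrdc3 and Arrdc4 are dim, with activated knockout means of 0.63 and 0.65, at the floor. Of the binding proteins related to Igfbp4, Igfbp2 rose in knockout cells (0.29) and Igfbp7 fell in wild-type cells (-0.43). Igfbp2 also lay near the floor, with means of 0.83 in naive and 1.12 in activated knockout cells. Sidt2 fell in knockout cells (-0.42 ± 0.10, limma adjusted p = 0.00434).

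**Figure D4:**
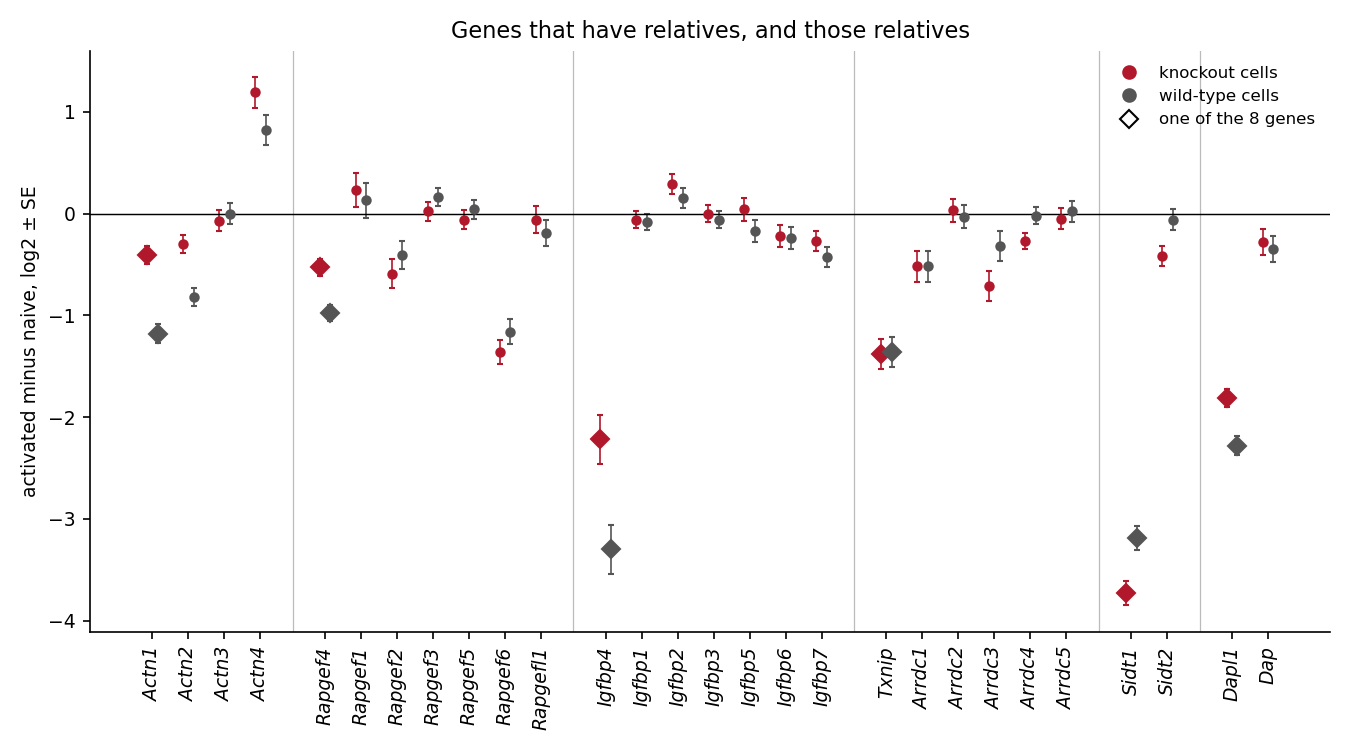
Activated minus naive difference (log2 ± SE, vertical axis) in knockout (red) and wild-type (grey) cells for 6 of the 8 genes (diamonds) and their relatives (circles), grouped by family. The 6 genes are all below 0, whereas most relatives lie near 0 and Actn4 lies above it.

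Other resting T-cell genes, and genes that work with the 8, were then set beside them. Of 21 other resting T-cell genes, 18 fell, 1 rose and 2 did not pass in knockout cells (median -1.56). In wild-type cells 18 fell (median -1.60) and 3 did not pass. The transcription factor Klf2 fell by 4.16 in knockout and 4.51 in wild-type cells, and S1pr1 by 3.31 and 4.38. Il6ra, a chain of the interleukin-6 receptor, fell by 2.86 in knockout and 3.14 in wild-type cells. The 1 gene called higher was Bach2, which rose by 0.50 in knockout cells and had a change of 0.34 in wild-type cells that did not pass. In naive cells 0 of the 21 were called between genotypes by limma, and 4 had an unadjusted p under 0.05; 2 were called without naive knockout array 4. In activated cells Il7r, the interleukin-7 receptor gene, was called higher in the knockout (0.73 ± 0.11, limma adjusted p = 0.0037), at 4.69, 4.93 and 4.90 against 4.25, 3.85 and 4.24 in the wild type. The count for activated cells was 3 without activated knockout array 4 and 2 without array 5.

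Among 17 genes of the PI3K pathway, which Pik3ip1 restrains, 2 rose and 4 fell in knockout cells and 1 rose and 4 fell in wild-type cells. The regulatory subunit gene Pik3r1 fell by 0.76 and 1.05, the catalytic subunit gene Pik3cd by 0.71 in both, and Akt2 rose by 0.73 and 0.94 in knockout and wild-type cells. Limma called 0 of the 17 in the interaction, also with 0 at an unadjusted p under 0.05. Pik3r5, a regulatory subunit of PI3K-gamma, was higher in the knockout by 0.52 ± 0.09 in both states (limma adjusted p = 0.0107 in each), with 3.24, 3.27 and 3.40 against 2.83, 2.64 and 2.90 in activated and 4.01, 3.80 and 3.79 against 3.31, 3.36 and 3.38 in naive cells. It was the 1 gene of the list called in each state. The call in activated cells was lost without activated wild-type array 2 or with only the arrays compared, and with the mean of all probe sets 2 genes were called. In naive cells a trended, robust variance ended the call, as did leaving out wild-type array 1.

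The Rap1 pathway, on which Rapgef4 acts, moved largely one way. Of 21 genes, 2 rose and 12 fell in knockout cells (median -0.34), and 0 rose and 14 fell in wild-type cells (median -0.38). The cyclic AMP phosphodiesterase gene Pde4b fell by 2.90 in knockout and 3.10 in wild-type cells (limma adjusted p = 1.42e-09 and 7.5e-10). Rasgrp2, another activator of Rap1, fell by 1.59 and 1.81, and Apbb1ip, the Rap1 effector that recruits talin to integrins, by 1.68 and 1.52. Prkacb, a catalytic subunit of protein kinase A, fell by 1.37 and 1.45, whereas Prkaca rose by 0.53 in knockout cells. Between genotypes limma called 0 of the 21 in either state, with 4 in activated and 2 in naive cells at an unadjusted p under 0.05.

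Most genes tied to Txnip rose while Txnip itself was lower. Of 13 genes of the thioredoxin system, glucose uptake and the Mondo sensors, 8 rose and 0 fell in knockout cells (median 0.78), where 15.8% of all genes rose. In wild-type cells 7 rose, 0 fell and 6 did not pass (median 0.89), where 14.8% of all genes rose. The Mondo sensor genes Mlxip and Mlxipl did not rise. Their wild-type means were 1.97 and 0.60 in activated against 1.98 and 0.75 in naive cells, with Mlxipl at the floor. The thioredoxin gene Txn1 rose by 2.11 ± 0.10 in knockout and 2.08 ± 0.10 in wild-type cells (limma adjusted p = 5.8e-10 and 6.84e-10), reaching 8.15 to 8.25 and 8.10 to 8.17. The thioredoxin reductase gene Txnrd1 rose by 2.10 and 1.81, the peroxiredoxin gene Prdx2 by 2.18 and 1.75 and the stress-response gene Ddit4 by 2.55 and 3.00. Between genotypes limma called 0 of the 13 in either state, with 1 in activated and 2 in naive cells at an unadjusted p under 0.05. The naive count was 1 without activated knockout array 6.

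Actin linkers, the class that works with Actn1, were mixed: of 18, 2 rose and 5 fell in knockout cells and 2 rose and 4 fell in wild-type cells. Zyx, the zyxin gene, fell by 0.88 and 0.84, and Tln1, the talin gene, by 0.66 and 0.82. Lasp1, an actin-binding gene, was the 1 linker called between genotypes, higher in activated knockout cells (0.58 ± 0.12, limma adjusted p = 0.0275). No linker was called without any 1 of activated wild-type arrays 1, 2 and 3 or activated knockout arrays 5 and 6, nor with only the arrays compared, and 2 were called without activated knockout array 4. In the interaction limma called 0 of the 18, with 2 at an unadjusted p under 0.05.

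The lists around Igfbp4 and Als2cl were short. Of 10 genes of the insulin-like growth factor axis, the clearance receptor gene Igf2r rose by 1.56 in knockout and 1.06 in wild-type cells and the adaptor gene Irs2 fell by 1.16 and 0.99, and the other 8 did not pass in either genotype. Of 11 genes of the Rab5 pathway, 2 rose and 1 fell in knockout cells and 3 rose and 1 fell in wild-type cells. The Rab5 effector gene Eea1 rose by 1.06 and 0.93, and the exchange factor gene Rin3 fell by 0.63 and 0.74. Eea1 rose from the floor, with naive means of 0.53 in knockout and 0.43 in wild-type cells. Between genotypes limma called 0 genes of either list. At an unadjusted p under 0.05 there were 0 for the growth factor list, and 1 in activated and 2 in naive cells for the Rab5 list. Without naive knockout array 4 or 5, 1 Rab5 gene was called in activated cells, and without activated knockout array 6, 1 was called in naive cells.

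**Figure D5:**
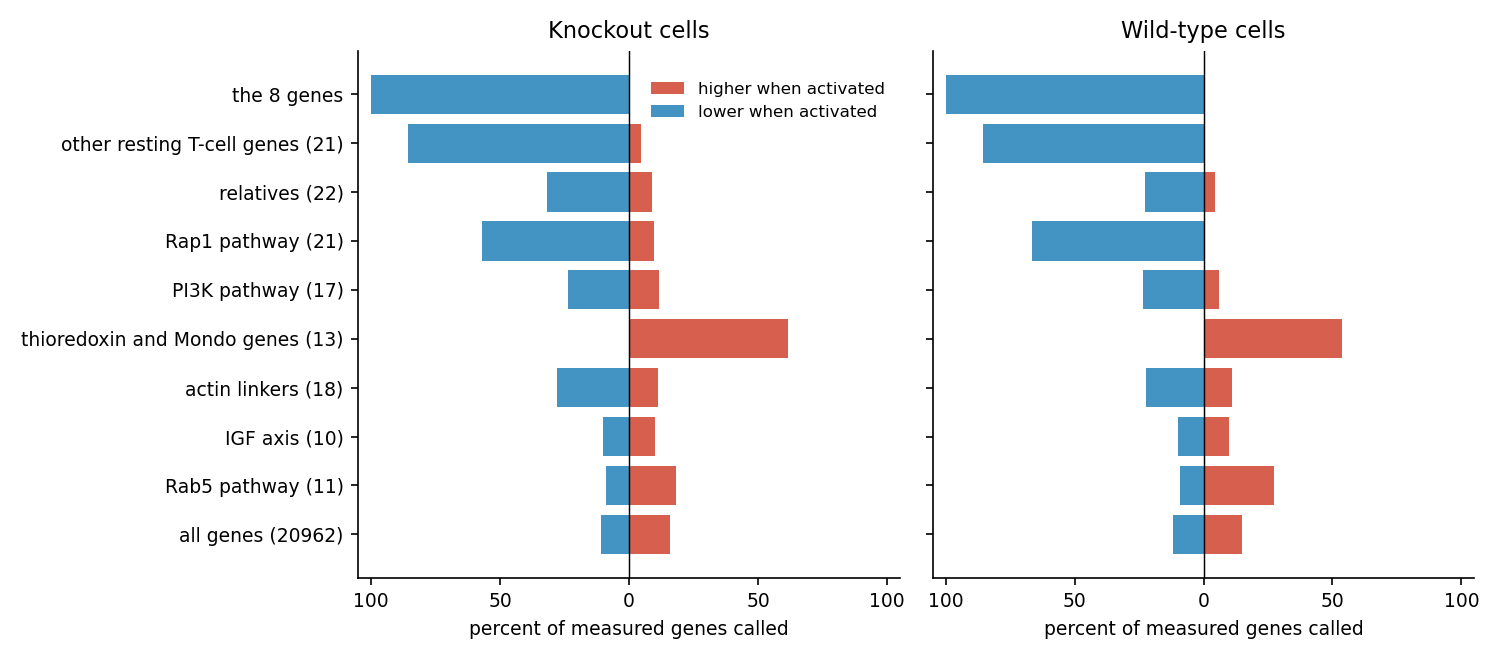
Percent of the measured genes of each list called higher (red, right of 0) or lower (blue, left of 0) on activation, in knockout cells (left panel) and wild-type cells (right panel), with the number of measured genes in brackets. All 8 genes and 18 of 21 other resting T-cell genes were called lower, against 10.9% of all genes in knockout and 11.9% in wild-type cells. Knockout arrays helped to choose the 8 genes, and the lists were chosen with earlier results known, so these shares are not independent evidence.

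The authors' deposited table also marks genes for NFKB; 3 of the 8 carry the mark (Sidt1, Als2cl and Pik3ip1), as do 46.8% of the 14913 genes with an entry.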

How the data were processed

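Expression was measured on Affymetrix HT mouse arrays after amplification of about 200 ng of RNA, per the labels' protocols. The deposited values are log2 estimates made by the authors with RMA from perfect-match probes alone, as the file headers state, without naming a version. RMA puts all arrays on 1 distribution, so a change in total RNA per cell is not seen. The log2 values were used as deposited. There were no detection calls, and 3 arrays a group limit the precision.

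Of 45141 probe sets, 104 controls were left out, and 38544 belong to 1 gene, 860 to several and 5633 to none. Each of 20962 genes was represented by its brightest probe set (highest mean over the 12 arrays); symbols of 18394 were updated by gene identifier from RefSeq. The 8 genes have 20 probe sets, of which 1 of Txnip and 1 of Pik3ip1 are marked antisense and 11 carry a cross-hybridization note. The note is on the chosen probe sets of Dapl1, Sidt1, Txnip and Pik3ip1, and not on those of the other members. The 12 arrays were fitted in limma 3.58.1 (R 4.3.3) with 4 group means and eBayes, with Benjamini-Hochberg adjustment of p-values across all 20962 genes. The fit was tested on simulated data. Marker sums add the values after taking them off the log2 scale. Other steps used Python 3.11.15 with pandas 2.3.3, numpy 2.4.6 and matplotlib 3.10.9.

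By the labels, each mouse pairs a naive with an activated sample. Pearson's r of their deviations from the group means was 0.04, -0.1, 0.05, 0.13, -0.05 and 0.07 for mice 1 to 6, across genes. The 8 genes and all lists were chosen with earlier results of these data known, and a few list genes are not reported here. Named were all 8 genes and their probe sets, any relative, up to 4 called genes with the largest change per list, comparison and direction (all where 5 or fewer), the 3 genes most like each member, up to 4 genes per marker list, Mlxip, Mlxipl and Ezh2. Genes with provisional symbols were left out of the search for the most alike. Alternatives covered normalization, probe-set choice, dim and antisense-marked probe sets, the variance model, the arrays fitted, the replicate block and leaving out each array.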

Additional observations from a re-analysis of the deposited data

Results flagged for a closer look

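The change of Actn1 on activation was called different between genotypes on its chosen probe set. The knockout-minus-wild-type difference of the activation changes was 0.77, with within-mouse changes of -0.63 to -0.27 in knockout mice and -1.26 to -1.13 in wild-type mice. Because genotype differences helped to choose Actn1, this is a description. The call was lost with the mean of all probe sets (0.69), and neither of the other 2 Actn1 probe sets was called (0.77 and 0.55).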

How the results depend on the processing

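All 8 genes were called lower on activation in both genotypes under all 21 alternative settings (9 processing choices and 12 that left out 1 array). With the mouse as replicate block, 8, 8, 3, 2 and 1 of the 8 genes were called for knockout activation, wild-type activation, naive genotype, activated genotype and the interaction, as without it, and the block changed no call of theirs. The interaction count was 2 with the mean of all probe sets and 1 to 2 when single arrays were left out, being 2 without naive knockout array 4, activated knockout array 5 or activated knockout array 6; fitting only the arrays compared gives no interaction. With the mean of all probe sets Actn1 lost its interaction call (0.69) while Igfbp4 (1.38) and Als2cl (-0.55) gained one. The genotype difference of Pik3ip1 in activated cells, near 0, turned to -0.02 with the mean of all probe sets and -0.07 without antisense-marked ones, and ran from -0.10 to 0.13 when single arrays were left out. The interaction of Txnip ran from -0.16 to 0.16. Sidt1 was not called in naive cells after quantile normalization (0.51), Pik3ip1 was called there with the mean of all probe sets (-0.58) or without antisense-marked ones (-0.60), and Igfbp4 was called in activated cells with a trended, robust variance. Over all genes the naive genotype count of 228 was 139 without naive wild-type array 1 and 148 without array 3. The activated genotype count of 277 was 153 with only the arrays compared, and 182, 147 and 150 without activated wild-type array 1, 2 or 3. The causes were not tested. With 3 arrays a group and most probe sets near the floor, folds of dim genes such as Rapgef4 are compressed.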
